A study of Mus musculus with 8 samples.

Results

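The genes described here are Sgk1 and a set of immediate early genes, measured in mouse embryonic fibroblasts (MEFs) with and without deletion of H3f3b, 1 of the genes for the histone variant H3.3. The set was Sgk1, Fos, Fosl1, Fosl2, Jun, Junb, Egr1, Ier3, Myc and Dusp1, found by gene symbol on the array. Of the 10 genes, 9 had a probe and Fosl2 had none. These 9 genes had 10 probes, Myc having 2, and all 9 were among the 8488 genes tested. They were selected on their Cre against GFP changes, which were already known, so those changes are given below as values and without a test.

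The series held 8 Illumina MouseRef-8 arrays, 4 with Cre and 4 with GFP. All MEFs were C57BL6J, from embryos of age E12.5, and H3f3b Fl/Fl, the GFP controls included, so every array carried the floxed alleles. The Cre arm was transduced with a retrovirus encoding Cre and GFP (CRE-IRES-GFP) and the GFP arm with the vector encoding GFP alone (IRES-GFP). There were 3 lines: cKO1 and pcKO1 with 1 pair of arrays each, and cKO2 with 2 pairs, named cKO2 and cKO2 (2) here and described in the methods as analytical duplicates, which were averaged. The deposited headers give 1 cell name to 2 of the 4 pairs, once as pooled, and could not be tied to the labelled lines. Some lines may therefore share a source, and p-values measure only the spread between these cultures.

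H3f3b was lower with Cre in each pair. Its deposited intensity was 4420.1 with GFP and 169 with Cre in cKO1, 5549 and 215 in cKO2, 6223 and 219.9 in cKO2 (2), and 4082 and 920.2 in pcKO1. The groups did not overlap, and the pcKO1 Cre array kept the highest level of the 4. Of 11 fibroblast markers 10 were tested, with summed intensities of 29170 to 39020 with GFP and 25260 to 43290 with Cre. The sums are carried by the brightest markers and do not make the lines alike. All 10 differed between lines (limma moderated F test, adjusted p under 0.05), against 44.7% of all genes. Both cKO1 arrays were below the other 6 for 6 of the 10, against 20.2% of all genes. They were above the other 6 for 1, as for 1682 of the 8488 genes tested. Dcn, for example, was 6.16 and 5.95 (log2) in cKO1 and 10.68 to 11.17 in cKO2. From 0 to 2 markers passed the detection filter for each of macrophages, endothelium, epithelium, neurons, skeletal muscle and erythroid cells. The SD over all genes of the log2 change after Cre was 0.42 for the cKO1 line, 0.18 for cKO2, and 0.26 for the pcKO1 line. The cKO2 change is an average of 2 pairs, which narrows its spread, while the other lines have 1 pair each. The cKO1 pair thus changed most over the whole array, and a given log2 change is less unusual in it.

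Immediate early genes are transcribed within minutes of serum, growth factors, stress or handling, without new protein synthesis, and their RNAs are mostly short-lived. Fos, Fosl1, Fosl2, Jun and Junb encode basic leucine zipper subunits of AP-1, in which Fos family proteins pair with Jun family proteins. Egr1 is a zinc finger transcription factor, Myc a helix-loop-helix activator of growth genes, Dusp1 a phosphatase that inactivates MAP kinases, and Ier3 a short-lived protein of cell survival. Sgk1 is a kinase related to Akt whose gene responds to serum and to glucocorticoids, and fibroblasts are the classical cells in which such serum responses were studied.

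Promoter windows of 300 bases, 250 before and 50 after a transcription start, were read from RefSeq (GRCm38.p6). They covered 7 of the genes (Sgk1, Fos, Fosl2, Jun, Junb, Ier3 and Dusp1) with 12 starts, 6 of these for Sgk1. Myc and Fosl1 had no window in the sequences used. Egr1 was left out by a rule on gene location, and not for lack of a sequence. None of these genes was searched. Shown are the Dusp1, Fos and Junb windows, which hold a cyclic AMP response element (CRE, TGACGTCA) or its core TGACG, and 1 of the 6 Sgk1 windows, which holds a full palindromic glucocorticoid response element. Capitals mark these elements. The windows are Sgk1, the fifth start, chr10:21993640-21993939, plus strand. Dusp1 is chr17:26508423-26508722, minus strand. Fos is chr12:85473640-85473939, plus strand. Junb is chr8:84978699-84978998, minus strand.
Sgk1: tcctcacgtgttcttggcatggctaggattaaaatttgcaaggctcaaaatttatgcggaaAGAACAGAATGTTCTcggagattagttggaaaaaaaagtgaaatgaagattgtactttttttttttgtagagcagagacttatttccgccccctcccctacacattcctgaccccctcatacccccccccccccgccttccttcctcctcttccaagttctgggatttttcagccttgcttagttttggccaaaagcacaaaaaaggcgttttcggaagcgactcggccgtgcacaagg
Dusp1: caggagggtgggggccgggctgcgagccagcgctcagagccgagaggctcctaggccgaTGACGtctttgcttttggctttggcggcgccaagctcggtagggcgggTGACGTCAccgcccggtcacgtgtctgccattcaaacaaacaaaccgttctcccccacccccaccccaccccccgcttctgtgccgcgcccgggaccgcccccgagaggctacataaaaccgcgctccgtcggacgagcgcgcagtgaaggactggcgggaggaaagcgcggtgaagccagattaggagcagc
Fos: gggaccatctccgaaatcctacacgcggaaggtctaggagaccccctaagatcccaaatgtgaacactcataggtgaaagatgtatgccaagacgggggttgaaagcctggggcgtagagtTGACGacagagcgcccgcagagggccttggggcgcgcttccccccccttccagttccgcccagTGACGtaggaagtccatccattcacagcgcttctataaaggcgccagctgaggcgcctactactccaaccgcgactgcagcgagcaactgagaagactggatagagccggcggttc
Junb: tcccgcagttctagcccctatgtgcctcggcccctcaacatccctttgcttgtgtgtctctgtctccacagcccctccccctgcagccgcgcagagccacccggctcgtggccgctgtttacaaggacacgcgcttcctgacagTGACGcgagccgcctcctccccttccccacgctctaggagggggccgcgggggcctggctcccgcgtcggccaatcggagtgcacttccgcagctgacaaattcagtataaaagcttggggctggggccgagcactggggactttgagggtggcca

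The Sgk1 palindrome began 189 bases upstream of that start. It was searched as AGA, ACA, 3 free bases, TGT and TCT, on both strands, and was present in 3 of 32851 promoter windows (0.00913%). The shorter core ACANNNTGT, which lies inside it, was in 6.85% of windows and was also found at the second Sgk1 start. The palindrome was searched after the Sgk1 sequence had been seen, so its rarity is a description. A full CRE was present in Dusp1, 143 bases upstream, and in 1.79% of all windows. The core TGACG, which the full element contains, was in 20.8% of windows and in those of Dusp1, Fos, Junb and the second Sgk1 start. In Fos it began 129 and 66 bases upstream and in Junb 106 bases upstream. The AP-1 site TGANTCA (7.81% of windows) and the CArG box, the site of serum response factor (1.63%), matched none of the 12 windows. A match is a run of letters and not a measured site. No match refers only to these windows, and says nothing of Egr1, Myc and Fosl1.

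Sgk1 was higher with Cre in every pair. Its intensity was 4101 with GFP and 8079 with Cre in cKO1, 2054 and 3161 in cKO2, 2019 and 3106 in cKO2 (2), and 4999.6 and 5627 in pcKO1. Each Cre array was above its own control, but the arms overlapped, since the lines differed in their starting level and both GFP arrays of cKO1 and pcKO1 exceeded both Cre arrays of cKO2. The log2 change reached 1.04 in cKO1, 0.66 in cKO2 (0.71 and 0.60 by pair) and 0.22 in pcKO1, with a mean of 0.64 ± 0.41 (SD, n = 3 lines). Without cKO1 the mean was 0.44. In these bulk cultures, a change in the number of expressing cells and a change in RNA per cell cannot be told apart.

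Sgk1 was the only gene of the set at least 1.5-fold higher in cKO2, as were 6 of all genes tested (0.0707%). Averaging the cKO2 pairs narrows the spread, so this share is not comparable with those of cKO1 and pcKO1. In cKO1, the line with the widest spread, 4 of the 9 genes were at least 1.5-fold higher, as were 5.53% of all genes. In pcKO1 no gene of the set was 1.5-fold higher, against 1.70% of all genes. The rule that chose the genes used this contrast, so nothing is read from these counts.

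Ier3 and Dusp1 had the same order of change over the lines. Ier3 intensity was 2167 with GFP and 4859 with Cre in cKO1, 2253 and 2598 in cKO2, 2016 and 2775 in cKO2 (2), and 2709.7 and 2577 in pcKO1. The cKO1 Cre array was the highest of the 8. Its log2 changes were 1.19, 0.35 and -0.04 in cKO1, cKO2 and pcKO1, with a mean of 0.50 ± 0.63 (SD, n = 3 lines), and the mean was 0.15 without cKO1 and 0.77 without pcKO1.

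Dusp1 intensity was 1312 with GFP and 3128 with Cre in cKO1, 1617 and 2114 in cKO2, 1695 and 2239 in cKO2 (2), and 2707 and 2452 in pcKO1. The cKO1 pair held both the lowest and the highest of the 8 arrays. The log2 changes were 1.25, 0.41 and -0.11 in cKO1, cKO2 and pcKO1, with a mean of 0.52 ± 0.69 (SD, n = 3 lines) that became 0.15 without cKO1 and 0.83 without pcKO1. For both genes the sign in pcKO1 was opposite to that of the other lines, and the difference between lines in the change was not tested.

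The AP-1 genes did not move as a group. Fos intensity was 338 with GFP and 214 with Cre in cKO1, 954 and 1191 in cKO2, 1139.9 and 1261 in cKO2 (2), and 765 and 905 in pcKO1. It was lower with Cre in cKO1 alone and higher in the other 3 pairs. The log2 changes were -0.90, 0.23 and 0.28 in cKO1, cKO2 and pcKO1, with a mean of -0.13 ± 0.66 (SD, n = 3 lines), and the mean was 0.25 without cKO1, -0.31 without cKO2 and -0.33 without pcKO1. Fos was the only gene of the set at least 1.5-fold lower in cKO1, against 7.92% of all genes.

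Fosl1, the gene of Fra-1, went the other way in cKO1. Its intensity there was 191.9 with GFP and 333 with Cre, against 112 and 133 in cKO2, 142 and 135 in cKO2 (2), and 232 and 192 in pcKO1. Its probe was detected on 4 of 8 arrays, 2 in each arm, so part of these values are not above background. The log2 changes were 1.01, 0.15 and -0.44, with a mean of 0.24 ± 0.73 (SD, n = 3 lines) that was -0.14 without cKO1 and 0.58 without pcKO1.

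Junb, often a partner of Fos, was higher with Cre in every pair by smaller amounts. Its intensity was 505 and 584 in cKO1, 768 and 820.2 in cKO2, 820.4 and 925.5 in cKO2 (2), and 819 and 839 in pcKO1, GFP first. The log2 changes were 0.29, 0.16 and 0.06, with a mean of 0.17 ± 0.11 (SD, n = 3 lines) that was 0.11 without cKO1. With median scaling in place of quantile normalization the pcKO1 value was -0.00, so the sign in that line depends on the scaling.

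Jun intensity was 303 and 371 in cKO1, 327 and 309 in cKO2, 329 and 342 in cKO2 (2), and 509.7 and 489.9 in pcKO1, GFP first. The arms overlapped and both pcKO1 arrays were above the other 6. The log2 changes were 0.37, -0.00 and -0.05, with a mean of 0.11 ± 0.23 (SD, n = 3 lines) that was -0.03 without cKO1, 0.16 without cKO2 and 0.19 without pcKO1.

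Egr1 and Myc had mean changes after Cre of 0.12 each. Egr1 intensity was 2468 and 2301 in cKO1, 7546 and 8502 in cKO2, 6980 and 9192 in cKO2 (2), and 6630.2 and 7269.8 in pcKO1, GFP first. Its log2 changes were -0.06, 0.27 and 0.16, with a mean of 0.12 ± 0.17 (SD, n = 3 lines) that was 0.21 without cKO1 and 0.05 without cKO2. The brighter Myc probe was detected on 3 of 8 arrays and ranged from 130.4 to 203 over the 8, with log2 changes of 0.32, -0.10 and 0.13 and a mean of 0.12 ± 0.21 (SD, n = 3 lines). That mean was 0.016 without cKO1 and 0.22 without cKO2. The other Myc probe was detected on 0 arrays.

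**Figure D1:**
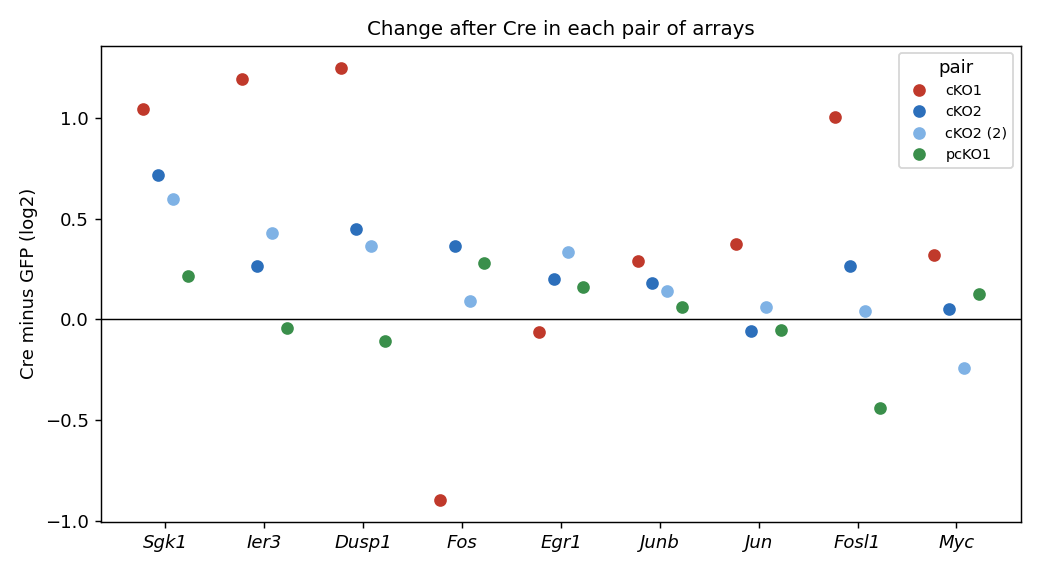
Log2 change, Cre minus GFP (y axis), of the 9 genes (x axis) in each of the 4 pairs of arrays, 1 point a pair. Sgk1 and Junb lie above 0 in all 4 pairs, and in Fos the cKO1 pair lies at -0.90 against 0.09 to 0.36 in the others.

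Of the 9 genes, 2 (Sgk1 and Junb) were higher with Cre in all 3 lines and 0 were lower in all 3. Over all genes 12.6% were higher in all 3 lines and 13.2% lower. The same 2 were higher in all 4 pairs, as were 7.14% of all genes. In cKO1, 4 genes (Sgk1, Fosl1, Ier3 and Dusp1) were at least 2-fold higher after normalization, against 0.919% of all genes. For Sgk1 and Fosl1 this depends on the scaling, as their ratios of deposited intensities were 1.97 and 1.74 and their log2 changes with median scaling were 0.87 and 0.80. Across the array, limma called 0 of 8488 genes between the arms at an adjusted p under 0.05 (0%), and 312 had an unadjusted p under 0.05 (3.68%), of which 138 were higher (1.63%) and 174 lower (2.05%).

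Whether the lines themselves differed in these genes was examined over both arms together. In the balanced fit the estimated line differences do not depend on the estimated Cre change. Both are judged against the same residual spread, so their p-values are not independent. Fosl1 and Myc are given as values here, since their probes were detected on 4 and 3 of 8 arrays. Of the 7 genes detected on all 8 arrays, 5 differed between lines (limma moderated F test, Benjamini-Hochberg adjusted over all genes), the exceptions being Ier3 (adjusted p = 0.327) and Dusp1 (adjusted p = 0.364). The lines differed in 44.7% of all genes tested, which include genes detected on as few as 3 arrays. The rule for the set also names levels by line, which may have been known when the genes were chosen. The p-values between lines are therefore no separate evidence about the set. Each line is 1 culture with 2 arms, and the test compares these 3 cultures, not types of line.

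Fos and Egr1 had the widest gaps and both were low in cKO1. On the log2 scale Fos was 8.25 and 7.36 on the cKO1 arrays, 9.78 to 10.16 on the 4 cKO2 arrays, and 9.46 and 9.74 in pcKO1. Both cKO1 arrays were below the other 6, as they were for 20.2% of all genes. Fos was 4.71-fold lower in cKO1 than in cKO2 (log2 difference -2.24 ± 0.28 SE, limma adjusted p = 0.000684) and 3.48-fold lower than in pcKO1 (-1.80 ± 0.28 SE, adjusted p = 0.0030). Between pcKO1 and cKO2 the difference was -0.44 ± 0.28 SE and did not pass (limma adjusted p = 0.313).

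Egr1 followed the same order. Its log2 level was 11.22 and 11.16 in cKO1, 12.77 to 13.10 in cKO2, and 12.67 and 12.83 in pcKO1. It was 3.36-fold lower in cKO1 than in cKO2 (-1.75 ± 0.14 SE, limma adjusted p = 6.84e-05) and 2.94-fold lower than in pcKO1 (-1.56 ± 0.14 SE, adjusted p = 0.000198). Between pcKO1 and cKO2 the difference did not pass (-0.19 ± 0.14 SE, limma adjusted p = 0.37).

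Junb was the third gene of the set with both cKO1 arrays lowest, at 8.89 and 9.18 against 9.43 to 9.71 in cKO2 and 9.56 and 9.63 in pcKO1 (log2). The differences were -0.55 ± 0.16 SE from cKO2 (limma adjusted p = 0.0302) and -0.56 ± 0.16 SE from pcKO1 (adjusted p = 0.0344). They were smaller than those of Fos and Egr1, and passed under 10 and 11 of 12 other settings respectively.

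Sgk1 and Fosl1 were lowest in cKO2. The log2 level of Sgk1 was 10.93 to 11.65 on the 4 cKO2 arrays, 11.96 and 13.00 in cKO1, and 12.24 and 12.46 in pcKO1. All 4 cKO2 arrays were below the other 4, as for 15.5% of all genes. Sgk1 was 2.30-fold higher in cKO1 than in cKO2 (1.20 ± 0.19 SE, limma adjusted p = 0.00204) and 2.11-fold higher in pcKO1 than in cKO2 (1.08 ± 0.19 SE, adjusted p = 0.0072). The difference between cKO1 and pcKO1 was 0.13 ± 0.19 SE (limma adjusted p = 0.654).

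The log2 level of Fosl1 was 6.13 to 6.56 in cKO2, 7.24 and 8.24 in cKO1, and 7.05 and 7.49 in pcKO1. The 4 cKO2 arrays were again below the other 4. The size of the difference between cKO1 and cKO2 moved from 0.99 to 1.83 (log2) over 11 other settings, and it is not given as a fold for a probe detected on 4 of 8 arrays.

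Jun was highest in pcKO1, at 8.81 and 8.76 (log2) against 8.04 to 8.43 on the other 6 arrays. The share of all genes with both pcKO1 arrays highest is not given here. In the tests between lines, values of Jun in pcKO1 are set against each other line. It was 1.62-fold higher than in cKO2 (0.69 ± 0.18 SE, limma adjusted p = 0.0312), while its difference from cKO1 lay just outside the threshold (-0.54 ± 0.18 SE for cKO1 minus pcKO1, adjusted p = 0.0558) and passed under 7 of 12 other settings. Myc was brightest on the cKO1 arrays, at 6.92 and 7.24 (log2) against 6.42 to 6.79 on the other 6, on a probe detected on 3 arrays. Both cKO1 arrays were above the other 6 for 1682 of the 8488 genes tested.

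**Figure D2:**
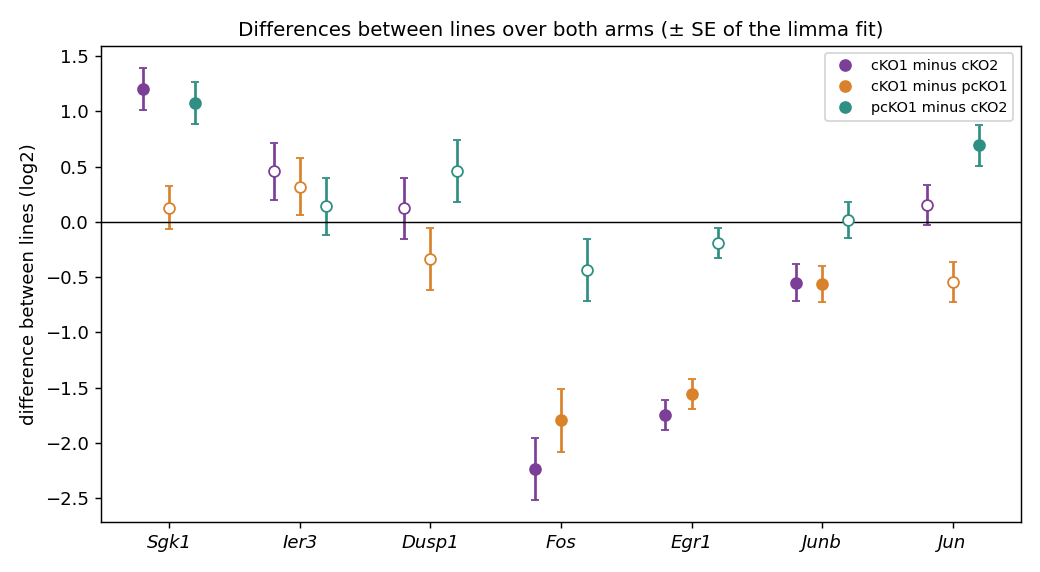
Log2 differences between lines over both arms (y axis) for the 7 genes detected on all 8 arrays (x axis), with the SE of the limma fit; filled points have an adjusted p under 0.05. Fos and Egr1 lie between -1.56 and -2.24 for cKO1 against either other line, and Ier3 and Dusp1 have no filled point.

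Ier3 and Dusp1 had no line difference past the threshold. Over both arms the intervals were wide, with differences of 0.46 ± 0.26 SE (Ier3, cKO1 minus cKO2) and 0.46 ± 0.28 SE (Dusp1, pcKO1 minus cKO2), and the 2 arms of cKO1 were 1.19 (Ier3) and 1.25 (Dusp1) apart. Against all genes, 37.7% differed between cKO1 and cKO2, 29.1% between cKO1 and pcKO1 and 19.8% between pcKO1 and cKO2. Of the 7 genes detected on all arrays these counts were 4, 3 and 2. As with the F test, these counts are no separate evidence about the set.

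**Figure D3:**
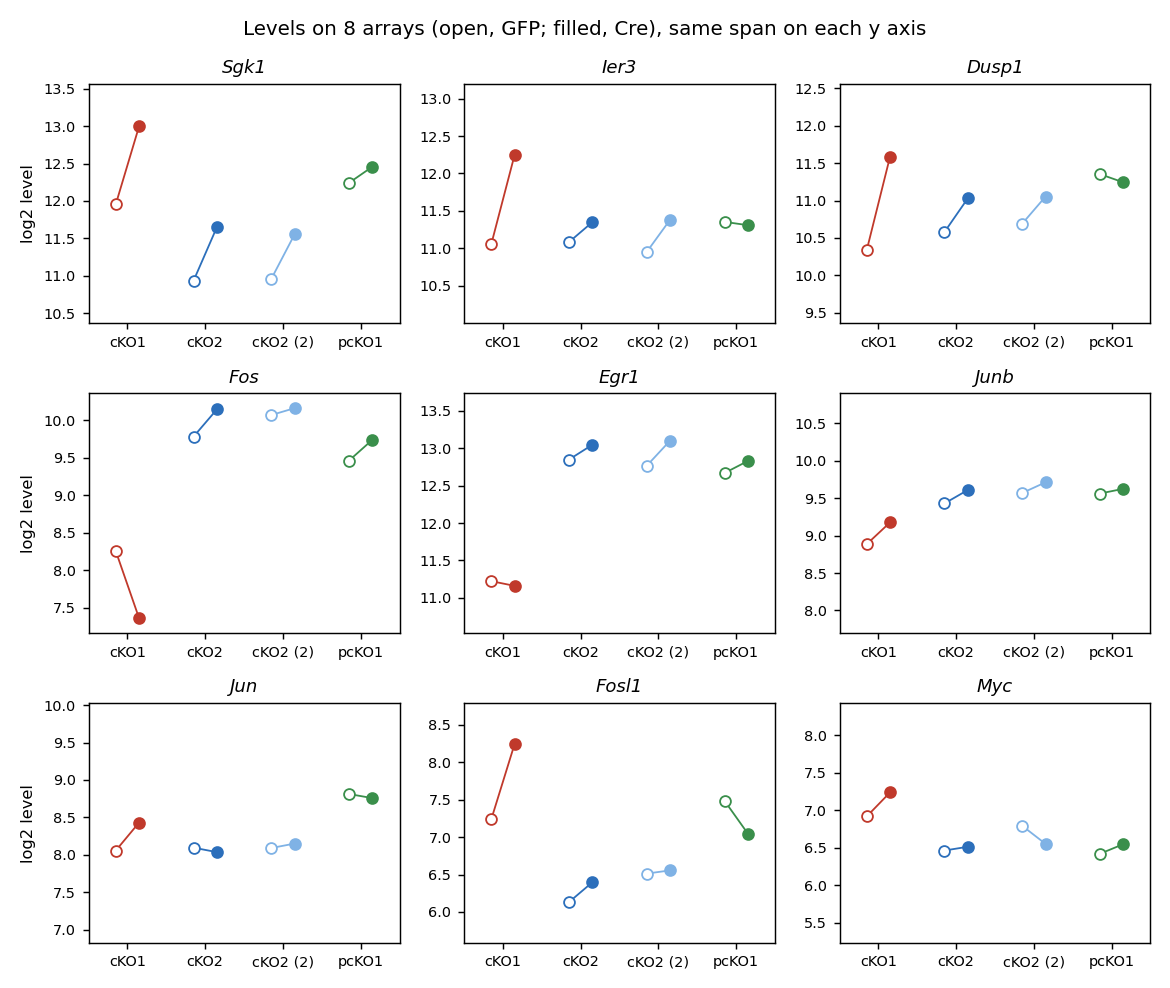
Log2 level (y axis, the same span in every panel) of each of the 9 genes on the 8 arrays by pair (x axis); open points are GFP and filled points Cre, joined within a pair. Fos and Egr1 are lowest on both cKO1 arrays, while the cKO1 Cre array is highest for Sgk1, Ier3, Dusp1, Fosl1 and Myc.

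Levels over the 8 arrays split the set by these line patterns. Pearson's r was 0.97 between Fos and Egr1, 0.92 between Junb and Egr1 and 0.83 between Fos and Junb. It was 0.90 between Sgk1 and Fosl1 and 0.80 between Ier3 and Dusp1, and -0.85 between Fos and Fosl1. The arrays share lines and arms, so these values describe 8 arrays and carry no test. The genes whose level was most like that of Sgk1 over the 8 arrays, among the 7099 others with a range of at least 0.5 (log2), were an unnamed probe (ILMN_2589615, r = 0.98), Stx3 (0.975), Ubap1 (0.97), Miip (0.97) and Brms1 (0.97).

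Other immediate early genes gave a mixed picture. Of 40 listed, 39 were on the array and 27 were tested. By line, in the order cKO1, cKO2 and pcKO1, their median log2 changes were 0.21, -0.02 and -0.01, against -0.03, 0.01 and -0.01 over all genes. In cKO1 20 of the 27 were higher, against 47.5% of all genes. In cKO2 12 were higher, against 51.5%, and in pcKO1 11, against 48.9%. Higher in all 3 lines were 2, Gadd45b, a growth arrest and stress gene, at 0.71, 0.27 and 0.13, and Fosb, a Fos family gene, at 0.14, 0.17 and 0.15. Fosb levels were 6.64 to 7.16 (log2), in the range of the Myc probe (6.42 to 7.24) and close to background. Lower in all 3 lines were 2, Homer1 and Cited2, the lowest value being -0.49 for Homer1 in pcKO1. For comparison, 12.6% of all genes were higher in all 3 lines and 13.2% lower. At the ends of the cKO1 order, chosen after their values were seen, Hbegf, an EGF receptor ligand, changed by 1.54, 0.11 and -0.44 and Klf2, a zinc finger factor, by -1.32, -0.02 and 0.18 in cKO1, cKO2 and pcKO1.

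**Figure D4:**
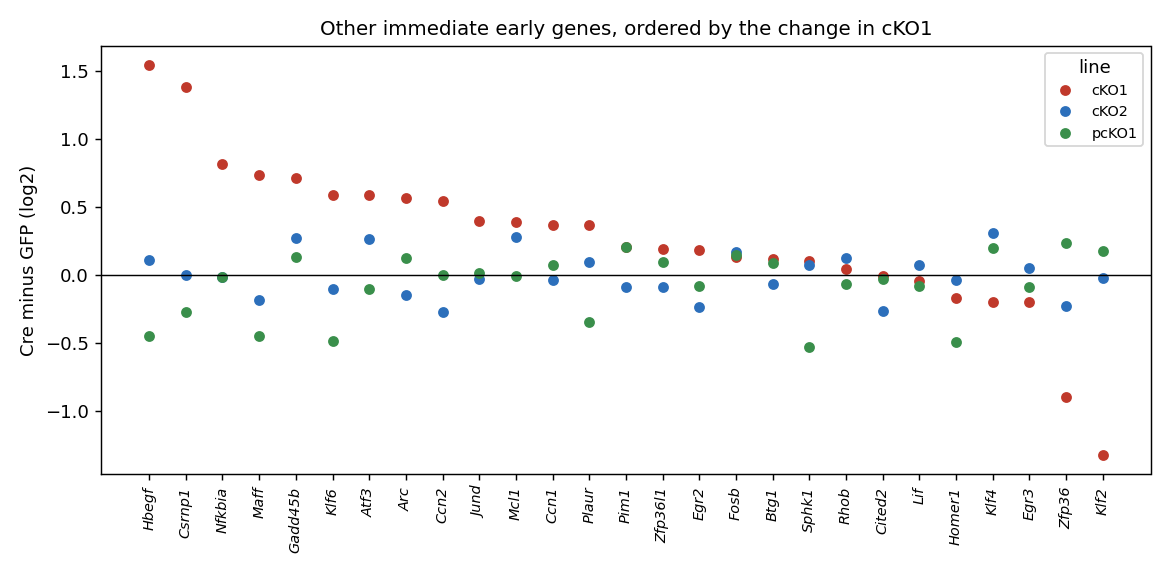
Log2 change, Cre minus GFP (y axis), of 27 other immediate early genes (x axis, ordered by their change in cKO1), 1 point a line. The cKO1 points run from 1.54 (Hbegf) to -1.32 (Klf2), and the cKO2 points lie between -0.27 and 0.31.

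Upstream of these genes, 19 genes of the MAP kinase cascade had a median change of 0.03. An unadjusted limma p under 0.05 was found for 1, against 3.68% of all genes. It was Mapkapk3, a stress kinase target, at 0.68, 0.44 and 0.18. Receptors for growth factors and lysophosphatidic acid (11 tested) had medians of -0.29, -0.00 and 0.12 in the same order of lines. The 12 tested inhibitors of MAP kinase signalling other than Dusp1 had a median of -0.03. Of these, Dusp6 and Errfi1, named after their values were seen, changed by 1.22 and 1.76 in cKO1, by -0.28 and 0.08 in cKO2 and by -0.15 and -0.14 in pcKO1.

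Downstream, 15 tested genes that respond to AP-1 had line medians of 0.48, 0.11 and -0.10. Of them 5 were higher in all 3 lines (Mmp3, Timp1, Cxcl1, Sqstm1 and Hmox1), against 12.6% of all genes. Lower in all 3 were 0, against 13.2%. Mmp3, Timp1 and Hmox1 were slightly lower in the second cKO2 pair (-0.02, -0.04 and -0.05), so only their cKO2 averages were higher. Cxcl1 and Sqstm1 were higher in both cKO2 pairs. Mmp3 levels in cKO2 were 6.10 to 6.26 (log2), close to background. An unadjusted limma p under 0.05 was found for 3 (Timp1, Sqstm1 and Hmox1), against 3.68% of all genes. Mmp3, a matrix metalloproteinase, changed by 1.81, 0.02 and 0.24, and Hmox1, heme oxygenase 1, by 0.74, 0.11 and 0.39. Mmp13, a collagenase named after its values were seen, changed by 3.20 in cKO1, with 0.09 and -0.10 in cKO2 and pcKO1. The 9 tested AP-1 and bZIP partners had a median of 0.13 and the 18 MYC-responsive genes of -0.01. The MYC-responsive genes had line medians of 0.21, 0.00 and -0.34 in cKO1, cKO2 and pcKO1. Of the 18, 14 were higher in cKO1, against 47.5% of all genes, and 0 in pcKO1, against 48.9%. Ccnd2, a cyclin among them, was lower in all 3 lines at -0.75, -0.03 and -0.31.

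Genes known to respond to glucocorticoids went both ways. The 14 tested had a median change of 0.02, with 3 higher (Mt2, Cebpb and Lcn2) and 3 lower (Klf9, Fkbp4 and Cdkn1c) in all 3 lines. The shares over all genes were 12.6% and 13.2%. Mt2, a metallothionein, changed by 0.87, 0.18 and 0.49, and Cdkn1c, a cyclin-dependent kinase inhibitor, by -0.73, -0.50 and -0.09 in cKO1, cKO2 and pcKO1. Mt2 levels were 6.25 to 7.41 (log2), close to background, and the far brighter Mt1 changed by 0.39, -0.11 and 0.17. In cKO2, Cebpb (-0.19 in the first pair) and Klf9 (0.14 in the second) kept their sign only as averages. Tsc22d3 and Fkbp5, classical glucocorticoid targets named after their values were seen, changed by -0.82 and 0.31 in cKO1 and by 0.46 and -0.58 in pcKO1. The relatives, activators and substrates of Sgk1 (13 tested) had a median of 0.00. In all 3 lines 4 were higher and 0 lower, against 12.6% and 13.2% of all genes. The 4 were Pdpk1, the kinase that activates Sgk1 (0.09, 0.25 and 0.21), Rictor and Mlst8, parts of mTOR complexes, and Gsk3b, a kinase. Pdpk1 levels were 6.17 to 6.95 (log2), close to background. Gsk3b was lower in the first cKO2 pair (-0.26) and higher in the second (0.42).

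The remaining lists had medians near 0 over the lines. The MYC network (8 tested) had a median of 0.01, and Huwe1, a ubiquitin ligase, was higher in all 3 lines at 0.22, 0.16 and 0.63. Huwe1 levels were 6.39 to 7.31 (log2), close to background, and its change in the second cKO2 pair was -0.02. Heat shock and handling genes (8 tested) had a median of 0.04 over the lines and 0.23 in cKO1. In that line 7 were higher, against 47.5% of all genes. Reference genes (9 tested) had a median of -0.02, and of 0.08 in cKO1. The part of handling in the cKO1 values was not tested.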

How the data were processed

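Total RNA from 3 MEF lines, each in 2 arms, was hybridised to 8 Illumina MouseRef-8 arrays. The authors deposited linear intensity values per probe, made in GenomeStudio and scaled so that every array has a mean of 508.3, and a second table with a detection p-value per probe, which the authors' software derives from negative controls. Columns of the second table name the arm but could not be tied to a labelled line, so the detection p-values served only to count detected arrays and its 8 columns of unscaled bead signal were not used. Per array, 9741 to 10888 probes were detected; the number of arrays limits the precision.

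Scaled intensities were background corrected (normexp, offset 50), quantile normalized and converted to log2 with limma 3.58.1 in R 4.3.3. A probe was kept if detected (p under 0.05) on 3 or more of the 8 arrays, as were 11152 of 25697, the brightest probe standing for a gene (8488 genes, 639 of them probes without a symbol). The cKO2 duplicates of an arm were averaged, and limma was fitted with line and arm as terms, with an intensity trend and Benjamini-Hochberg adjustment. Arrays of 1 line deviated together (r = 0.82, 0.92 and 0.75), in pairs given by the line label. Alternatives covered background, scaling, filter, probe choice, duplicates and left-out lines.

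The genes and gene lists were chosen with earlier results of these data known. Named are all genes of the set, up to 3 genes a list that moved 1 way in all lines by a mean of at least 0.3 (log2), and the 5 genes most like Sgk1. Slide and scan were not given in the sources used here.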

Additional observations from a re-analysis of the deposited data

Results flagged for a closer look

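Among the 4 arrays of an arm, 1 array stood apart from the other 3 in 6 of 18 groups examined (9 genes in 2 arms), against 8.51% of such groups over all genes. The usual chance rate of about 1 in 20 is for independent arrays and does not hold here, since 2 of the 4 arrays are cKO2 duplicates. The cKO1 Cre array stood apart for Fos (7.36 against 9.74 to 10.16), Egr1 (11.16 against 12.83 to 13.10), Ier3 (12.25 against 11.31 to 11.38) and Myc (7.24 against 6.51 to 6.55), all log2 levels. The cKO1 GFP array stood apart for Egr1 (11.22 against 12.67 to 12.85) and the pcKO1 GFP array for Jun (8.81 against 8.06 to 8.10).

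On the normalized scale, for 5 genes 1 line changed in the opposite direction to the pairs of the others, and the difference was not tested. Lines that disagree in sign were common, as only 12.6% of all genes were higher in all 3 lines and 13.2% lower. The share of all genes meeting this rule was not counted, so nothing is read from the 5. For Egr1 and Ier3 the opposite change was near 0. After Cre, cKO1 was lower for Fos (-0.90 against 0.09 to 0.36) and Egr1 (-0.063 against 0.16 to 0.34). The pcKO1 line was lower for Fosl1 (-0.44 against 0.04 to 1.01, although its deposited intensity was also lower with Cre in the second cKO2 pair, 142 and 135), Ier3 (-0.044 against 0.27 to 1.19) and Dusp1 (-0.11 against 0.36 to 1.25).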

How the results depend on the processing

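The count of genes called between the arms was 0, and stayed 0 under 10 settings, among them no replicate block (0 genes, the fit that ignores the pairing by line). It was 1 (H3f3b, lower) with median scaling and 1 (H3f3b) with no filter. With the cKO2 duplicates as separate pairs it was 5 (H3f3b, H3c13, H3c14, Ccl5 and the unnamed probe ILMN_2906728; 4 lower, 1 higher). Without 1 line or pair it ranged from 0 to 100: 100 without cKO1, 69 without pcKO1 and 3 without cKO2 (H3f3b, Prl2c3 and Prl2c4); the cause was not tested. At an unadjusted p under 0.05 it was 312. Of the 9 genes, Sgk1 was among those called without cKO1, and Sgk1, Ier3 and Dusp1 among those called without pcKO1; they were chosen on this contrast, so these calls are no separate evidence. None of the 9 was called under the other settings with adjusted p-values. Genes differing between lines numbered 3795, and 3114 to 5277 under the alternatives. Of 106 alternative line tests of the 9 genes, 103 stayed on the same side of the threshold; Junb lost its call with no filter (adjusted p = 0.0558), and the other 2 were of Myc. The mean change turned sign in 3 of 133 alternatives, those of Fos, Fosl1 and Jun without cKO1. In all 133 it stayed within 1 SD between lines of its main value. Leaving out 1 of 3 lines cannot move a mean that far, however. The settings with no filter, with the mean of probes and with no replicate block left the values unchanged. That count is therefore no measure of stability. Fosl1 and Myc lie near background and carry the least weight.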
